A study of Mus musculus with 18 samples.

Results

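Klf2, Klf4 and Klf5 are 3 of the 16052 mouse genes with at least 1 m6A-seq peak in the peak lists analysed. Their peaks were those that overlapped an annotated exon by at least 1 bp in the 7 library lists (65 of 102130 peaks), together with the entries under their gene symbols in the authors' 3 final lists (25 of 28982 entries). In m6A-seq, fragmented RNA is pulled down with an antibody against N6-methyladenosine (m6A), and places with more reads than in the input RNA are called peaks. The 7 libraries came from 3 embryoid body (EB) cultures, 1 culture of embryonic stem cells (ESCs) lacking Mettl3, and 3 ESC cultures, and the final lists cover EBs, embryonic fibroblasts (MEFs) and ESCs. The study's title places the comparison in the exit from naive pluripotency towards differentiation.

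All cultures had the C57BL/6 strain label. EBs A, B and C were aggregates of BVSC ESCs kept for 8 to 21 days in a serum medium without adherence, so a culture holds a mixture of cell types. The Mettl3-knockout ESCs carried the label negative control and were 1 library; their parental line and clone were not given in the sources used here. ESCs A, B and C were of the BVSC line, and the labels give serum-free N2B27 medium with LIF, CHIR99021 (1 to 3 µM) and PD0325901 (1 µM) for naive cells. The labels of the Mettl3-knockout ESCs give the same CHIR99021 and PD0325901 concentrations. MEFs were grown from E13.5 embryos. The series' design text describes the EB, MEF and ESC replicates as biological.

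Klf2, Klf4 and Klf5 are Krüppel-like factors, DNA-binding proteins that end in C2H2 zinc fingers which recognise GC-rich and CACC-type sequences. In mouse ESCs they act in the network that keeps the naive state. Klf4 is induced by LIF and Stat3 signalling, Klf2 is tied to the MEK branch that PD0325901 blocks, and Klf5 also acts in trophectoderm and epithelia. m6A is written onto mRNA by a complex whose catalytic subunit is Mettl3, mostly at adenosines in a GGAC-like context near stop codons and in long exons.

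The files give positions only, with no read depth, score or enrichment for any peak. A peak also requires its transcript to be expressed, so methylation and expression cannot be told apart, nor can fewer cells of a type and less RNA per cell. The lists differed in length, with 18185, 21509 and 12364 peaks in EBs A, B and C, 2043 in the knockout, and 10515, 19816 and 17698 in ESCs A, B and C. Of 7 ESC markers, 6, 7 and 5 had a peak in EBs A, B and C, 4 in the knockout and 5, 5 and 6 in ESCs A, B and C. Of 9 markers of differentiated EB cells, 6 had a peak in each EB library, 0 in the knockout and 3, 5 and 6 in ESCs A, B and C. Pou5f1, the defining factor of pluripotent cells, had a peak in EB B only. Of 8 fibroblast markers, 3 were in the MEF list, 6, 6 and 3 in EBs A, B and C and 1, 6 and 2 in ESCs A, B and C. Mettl3 itself had a peak in 0 libraries and 0 final lists, so its loss in the knockout cannot be read from its own peaks.

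Klf2 (ENSMUSG00000055148.7) lies on chr8:72319033-72321656 of GRCm38, on the plus strand, with 3 exons and an annotated mRNA of 1847 nt. Klf4 (ENSMUSG00000003032.8) lies on chr4:55527143-55532466, on the minus strand, with 5 exons and an mRNA of 3029 nt. Klf5 (ENSMUSG00000005148.8) lies on chr14:99298691-99315036, on the plus strand, with 4 exons and a main mRNA of 3352 nt. The coding sequence with its stop codon takes 1065 nt of Klf2, 1452 nt of Klf4 and 1341 nt of Klf5.

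The coding stretches below are those under a peak in every EB and ESC library for Klf2 and Klf4, and in the 5 libraries other than ESC A for Klf5. They show where repeated calls coincided, and each is read 5′ to 3′ on the transcript strand with the letters GGAC in capitals. The Klf2 stretch is codons 94 to 167 in exon 2 (chr8:72319633-72319852, plus strand), the Klf4 stretch codons 169 to 229 in exon 3 (chr4:55530423-55530605, minus strand) and the Klf5 stretch codons 218 to 264 in exon 2 (chr14:99301806-99301943, plus strand).
Klf2 exon 2: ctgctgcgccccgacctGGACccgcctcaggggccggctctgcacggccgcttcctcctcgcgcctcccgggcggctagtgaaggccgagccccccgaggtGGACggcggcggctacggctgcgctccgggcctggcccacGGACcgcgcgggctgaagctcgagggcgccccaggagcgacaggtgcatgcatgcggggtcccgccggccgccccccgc
Klf4 exon 3: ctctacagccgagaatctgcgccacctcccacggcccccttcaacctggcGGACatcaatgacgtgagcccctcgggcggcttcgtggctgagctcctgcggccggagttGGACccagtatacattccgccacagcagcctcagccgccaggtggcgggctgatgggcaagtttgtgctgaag
Klf5 exon 2: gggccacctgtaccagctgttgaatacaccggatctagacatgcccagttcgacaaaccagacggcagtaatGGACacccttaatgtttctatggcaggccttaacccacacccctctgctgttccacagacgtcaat
The Klf2 stretch of 220 nt holds 3 GGAC, the Klf4 stretch of 183 nt holds 2 and the Klf5 stretch of 138 nt holds 1. Among coding windows of the same lengths over all protein-coding transcripts, 64.0%, 57.4% and 47.7% hold at least 1 GGAC. The G and C content of these stretches was 79.1% in Klf2, 64.5% in Klf4 and 52.2% in Klf5. All 3 stretches lie before the zinc finger codons, outside the part of the protein that the family has in common.

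Klf2 also has a cluster of motifs just after its stop codon. The next sequence is the 30-base stretch of its 3′ UTR with the most GGAC (chr8:72321003-72321032, plus strand, 84 to 113 nt after the stop codon), chosen after its peaks were seen.
Klf2 after the stop codon: tattGGACcttaGGACagagccGGACaagt
It holds 3 GGAC. Of 936551 windows of 30 bases in annotated 3′ UTRs, 7.53% hold at least 1 GGAC and 85 hold 3 or more. The Klf2 stretch was chosen for its count, so these shares of unchosen windows do not show how rare it is. The whole stretch lay under a peak in all 3 EB and all 3 ESC libraries and in the final EB, MEF and ESC lists, and under no knockout peak.

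Klf2, Klf4 and Klf5 had peaks in every EB and every ESC library. A peak in all 6 of these libraries was found for 28.4% of the 15897 genes with a peak in any of them. At least 3 peaks in each of the 6 libraries were found for 2 of the 3 genes, Klf2 and Klf4, beside 2.33% of genes. Klf5 had 3, 4 and 2 peaks in EBs A, B and C, none in the knockout, and 2, 2 and 1 in ESCs A, B and C. The map of peaks along the 3 mRNAs shows blocks over the start, a long coding exon and the last exon in Klf2 and Klf4, and a sparser set in Klf5; peaks on neighbouring exons adjoin once introns are removed.

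**Figure D1:**
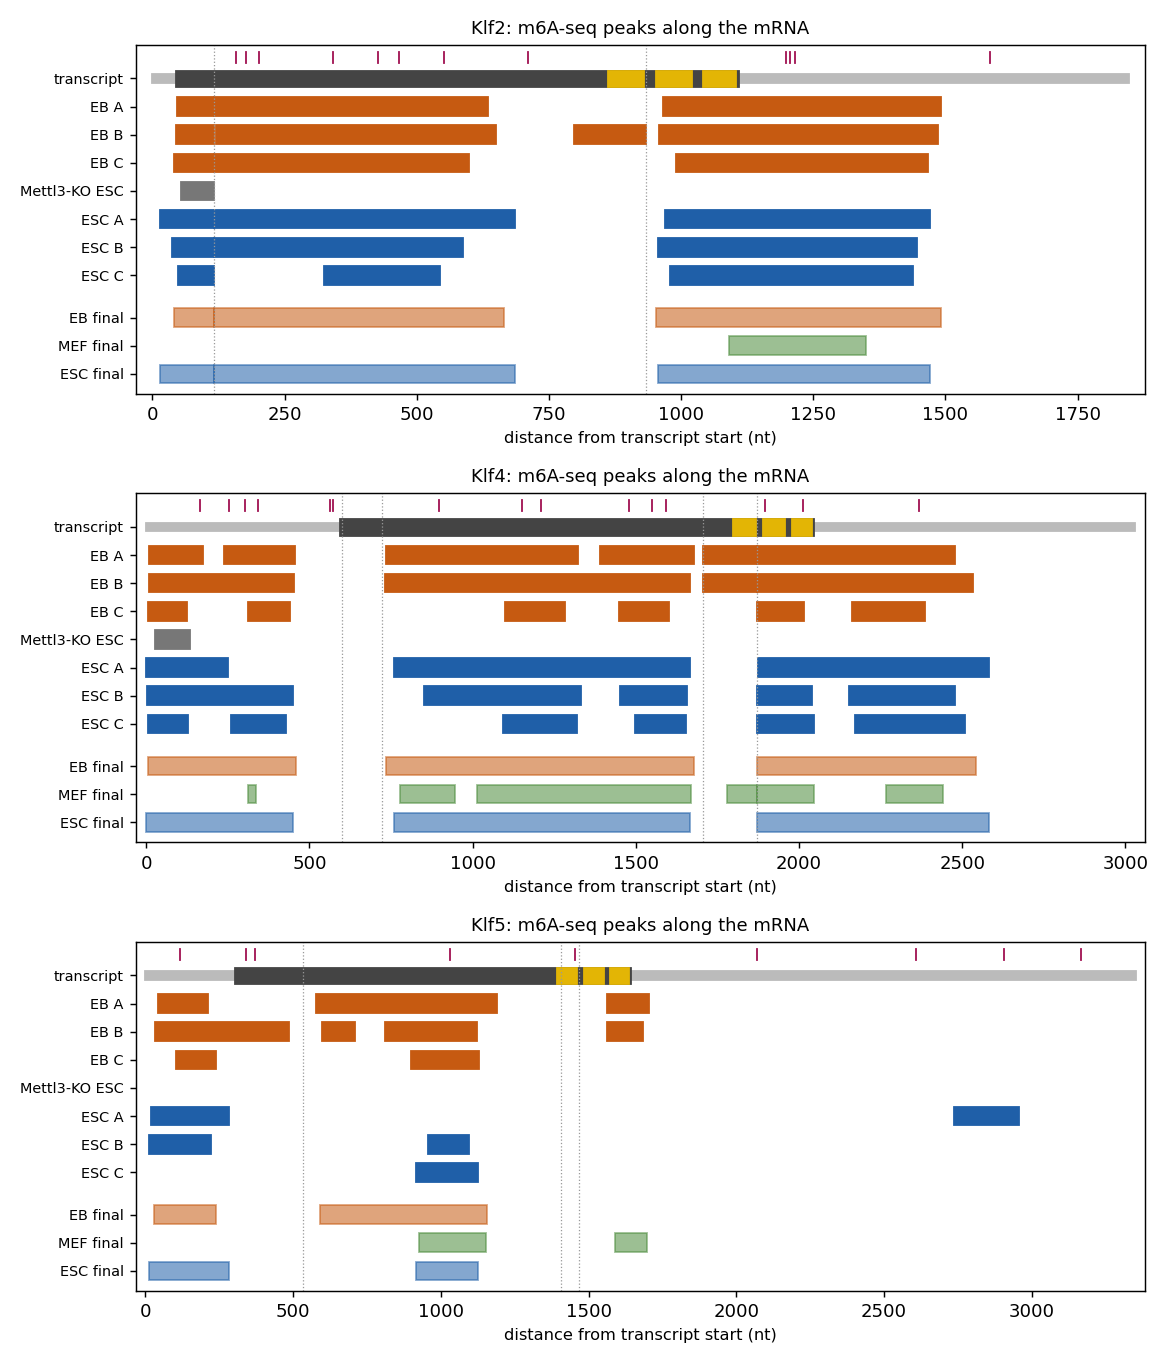
Peaks of Klf2, Klf4 and Klf5 placed on the main transcript, as distance from the transcript start in nt. Each row is a library (EB orange, Mettl3-KO grey, ESC blue) or a final list (paler, MEF green). On the transcript row, grey marks UTRs, black the coding sequence and gold the 3 zinc fingers; magenta ticks mark GGAC and dotted lines exon ends. The knockout has 1 short block near the start of Klf2 and of Klf4 and none on Klf5.

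In Klf2 the same 3 places carried peaks in all 6 libraries. The peak over the start of the coding sequence was 126, 134 and 146 bp wide in EBs A, B and C, against 186, 139 and 123 bp in ESCs A, B and C. The peak in exon 2, the long coding exon, was 539, 530 and 499 bp in EBs, against 572, 474 and 220 bp in ESCs, so ESC C held a much shorter one. The last-exon peak ran from the zinc finger codons over the stop codon and was 527, 527 and 478 bp in EBs, against 501, 490 and 459 bp in ESCs. Its centre lay 121, 115 and 122 nt after the stop codon in EBs and 112, 94 and 101 nt after it in ESCs. EB B alone had a further peak of 172 bp at the end of exon 2 (chr8:72320107-72320278).

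In Klf4 the peaks fell on exon 1, exon 3 and the last exon in all 6 libraries. Exon 1, nearly all 5′ UTR, had 387, 447 and 249 nt under peaks in EBs A, B and C, against 251, 447 and 293 nt in ESCs A, B and C. Exon 3, which encodes most of the region before the zinc fingers, had 873, 934 and 339 nt under peaks in EBs, against 907, 686 and 386 nt in ESCs. The last exon had 606, 661 and 370 nt in EBs, against 708, 495 and 510 nt in ESCs. EB C was the lowest of the EB libraries in each of these exons, and the EB and ESC ranges overlapped in each. EB C also had the shortest EB list, and the part of list length in these exon values was not tested. Over all Klf4 exons, the EB minus ESC difference in bases under peaks was 172 with lists shortened to the 10515 widest peaks, against 171.

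Exon 4 of Klf4, which encodes the first zinc finger, differed in whether it was called at all. All 165 nt of it lay under a peak in EB A and in EB B, and 91 nt in the MEF list. It had 0 nt under peaks in EB C, in the knockout and in ESCs A, B and C, and 0 nt in the final EB and ESC lists. Exon 2, of 121 nt, had no peak in any list.

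In Klf5 the peaks were fewer and moved more between libraries. The 5′ UTR had 169, 271 and 135 nt under peaks in EBs A, B and C, against 265, 212 and 0 nt in ESCs A, B and C. Exon 2, the long coding exon, had 611, 426 and 229 nt in EBs, against 0, 138 and 209 nt in ESCs. A peak over the stop codon was called in EB A (142 bp, chr14:99313247-99313388) and EB B (123 bp, chr14:99313246-99313368) and in the MEF list (111 bp, chr14:99313273-99313383). It was not called in EB C, the knockout, ESCs A, B and C, or the final EB and ESC lists. ESC A alone had a peak far into the 3′ UTR (220 bp, chr14:99314421-99314640), centred 1204 nt after the stop codon.

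Exonic bases under peaks served as the graded value of each gene in each library. For Klf2 they were 1116, 1265 and 1036 in EBs A, B and C, 62 in the knockout, and 1172, 1039 and 747 in ESCs A, B and C. Klf4 had 2031, 2207 and 958 in EBs, 107 in the knockout, and 1866, 1628 and 1189 in ESCs. Klf5 had 922, 1002 and 364 in EBs, 0 in the knockout, and 485, 350 and 209 in ESCs. The EB and ESC ranges overlapped for all 3 genes, although for Klf5 the overlap came from EB C alone, which fell between ESC A and ESC B. The knockout value lay below every EB and ESC value for each gene. The share of all genes with this pattern was not counted. Of the 5156 genes with a peak in each of ESCs A, B and C, 19.9% had any knockout peak.

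**Figure D2:**
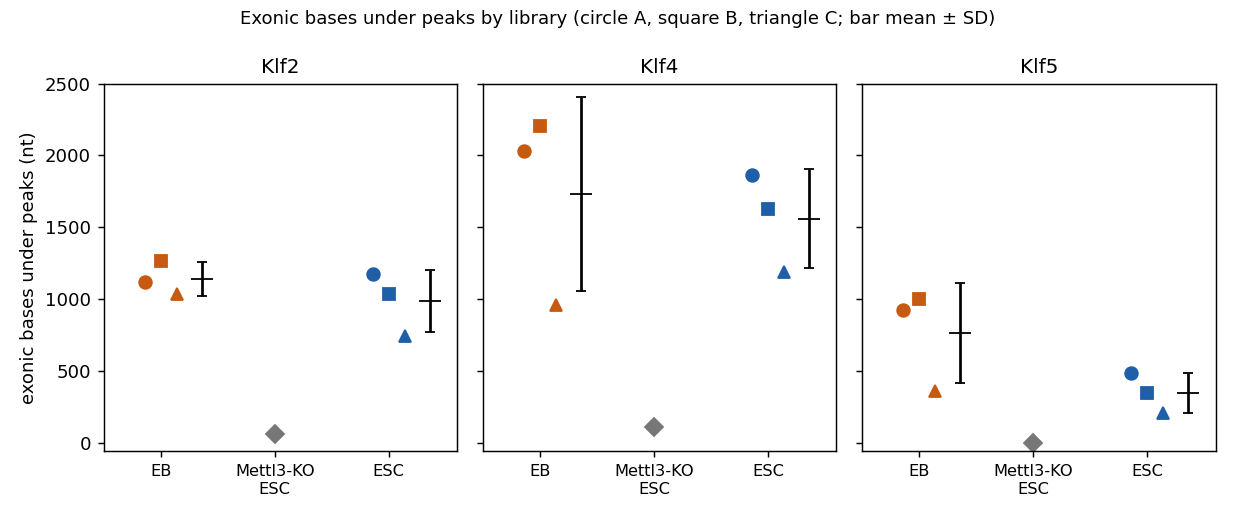
Exonic bases under peaks (nt) in each library, with circles for replicate A, squares for B and triangles for C; diamonds are the 1 Mettl3-KO library. Bars give the mean and SD of 3 libraries. EB C is the lowest EB library for each gene and ESC C the lowest ESC library.

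EBs and ESCs were set against each other with 2-sided exact permutation tests over libraries, in which 3 against 3 cannot give a p below 0.1. Klf2 had 1139 ± 116 exonic bases under peaks in EBs and 986 ± 217 in ESCs (SD, n = 3 each; difference 153, exact permutation p = 0.5). Klf4 had 1732 ± 676 in EBs and 1561 ± 343 in ESCs (SD, n = 3 each; difference 171, exact permutation p = 0.7). Klf5 had 763 ± 348 in EBs and 348 ± 138 in ESCs (SD, n = 3 each; difference 415, exact permutation p = 0.2). The Klf2 difference was 33.5 without ESC C, 90 without EB B and 246 without ESC A. The differences for Klf2 and Klf4 were within the spread between libraries, and the Klf5 difference did not pass. The Klf4 difference was −66.5 without EB B and −15.0 without ESC C, so its sign depended on those libraries; without EB A, EB C or ESC A it was 21.5, 558 or 323.5. Every EB library above every ESC library was found for 0 of the 3 genes and for 6.01% of 15897 genes, and every EB library below every ESC library for 0 of the 3 and for 1.52%.

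The number of peaks did not separate the groups either. Klf2 averaged 3.33 ± 0.577 peaks in EBs (SD, n = 3), against 3 peaks in each of ESCs A, B and C (exact permutation p = 1.0). Klf4 averaged 5.33 ± 1.15 in EBs and 4.67 ± 1.53 in ESCs (SD, n = 3 each; exact permutation p = 0.7). Klf5 averaged 3.0 ± 1.0 in EBs and 1.67 ± 0.577 in ESCs (SD, n = 3 each; exact permutation p = 0.3), a difference of 1.33 that was 0.833 without EB B. A wide peak in 1 library was often called as a pair in another, as in exon 3 of Klf4, so the number of peaks and the bases they cover need not move together.

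The width of a gene's widest peak was ranked among all peaks of the same list, as a percentile. Klf2 stood at 91.2 ± 2.19 in EBs and 93.9 ± 0.795 in ESCs (SD, n = 3 each; exact permutation p = 0.2). Klf4 stood at 85.6 ± 18.3 in EBs and 93.3 ± 5.80 in ESCs (SD, n = 3 each; exact permutation p = 0.7), with the sign turned without EB C. Klf5 stood at 81.6 ± 14.3 in EBs and 64.8 ± 3.73 in ESCs (SD, n = 3 each; exact permutation p = 0.3). The widest peaks of Klf2 and Klf4 were thus in the upper range of most lists, at 89.6 or above for Klf2 in all 6 libraries. A widest peak is ranked here among single peaks, so a gene with more peaks tends to rank higher. The widest peaks of other genes were not compared.

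The coding sequence of Klf5 was the place where EB and ESC libraries did not overlap. It had 694, 692 and 229 coding bases under peaks in EBs A, B and C, 0 in the knockout, and 0, 138 and 209 in ESCs A, B and C. The lowest EB library, EB C, was 20 bases above the highest ESC library, ESC C. The means were 538 ± 268 in EBs and 116 ± 106 in ESCs (SD, n = 3 each; difference 423, exact permutation p = 0.1, the smallest that 3 against 3 can give). Over the 21 tests of the 3 genes by place and measure, the Benjamini-Hochberg adjusted p from the exact permutation tests was 0.84, as low as any of the 21, and this measure was singled out after its values were seen. The same separation was found for 8.50% of the 10592 protein-coding genes with a peak on coding sequence. Coding bases of Klf2 (734, 889 and 674 in EBs, 62 in the knockout, 781, 696 and 419 in ESCs) and of Klf4 (1214, 1275 and 484 in EBs, 0 in the knockout, 1079, 854 and 560 in ESCs) overlapped between EBs and ESCs.

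After the stop codon the 3 genes differed among themselves. Klf2 had 382, 376 and 358 bases of 3′ UTR under peaks in EBs A, B and C, against 360, 336 and 328 in ESCs A, B and C, and the ranges overlapped. Klf4 had 430, 485 and 225 in EBs, against 536, 327 and 336 in ESCs. Klf5 had 59, 39 and 0 in EBs, against 220, 0 and 0 in ESCs. The knockout had 0 in each gene.

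**Figure D3:**
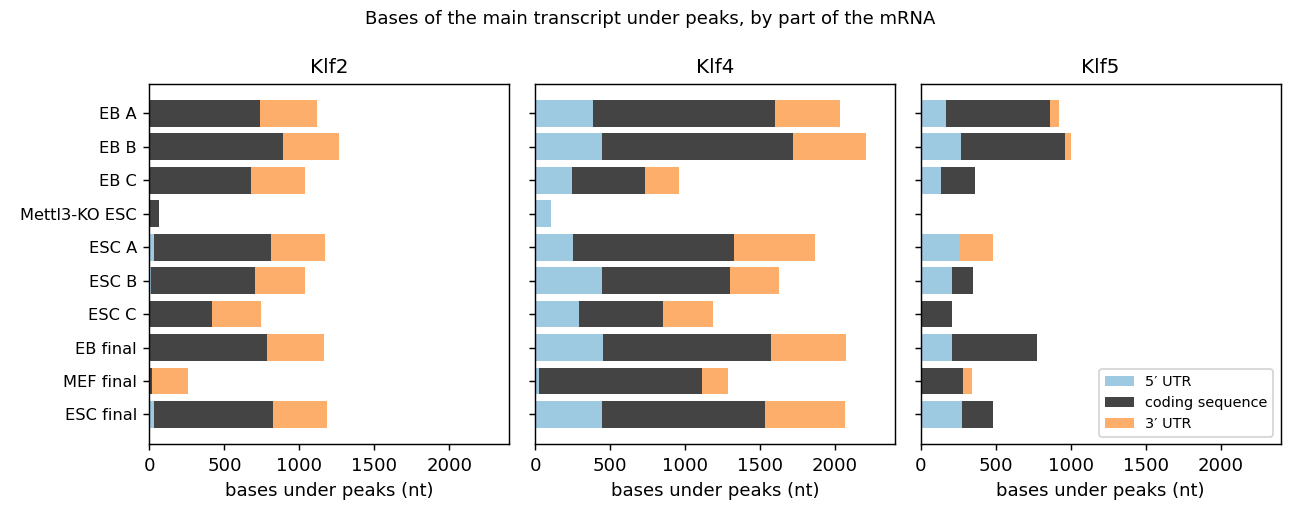
Bases of the main transcript under peaks (nt) in each library and final list, split into 5′ UTR (light blue), coding sequence (dark grey) and 3′ UTR (orange). Klf2, whose 5′ UTR is 45 nt long, has at most 31 nt of it under peaks (ESC A and the final ESC list), Klf4 has all 3 parts in each EB and ESC library, and Klf5 lacks coding bases in ESC A and in the Mettl3-KO library.

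Per length, Klf2 and Klf4 were covered over more of their mRNA than Klf5. Of the Klf2 transcript, 61.7 ± 6.29% lay under peaks in EBs, 3.36% in the knockout and 53.4 ± 11.8% in ESCs (SD, n = 3 EB and 3 ESC libraries). Of the Klf4 transcript, 57.2 ± 22.3% lay under peaks in EBs, 3.53% in the knockout and 51.5 ± 11.3% in ESCs. Of the Klf5 transcript, 22.8 ± 10.4% lay under peaks in EBs, 0% in the knockout and 10.4 ± 4.12% in ESCs. The order in EBs and in ESCs was Klf2, Klf4, Klf5. Klf2 and Klf4 did not differ beyond their spread, while every Klf5 library lay below every Klf2 and every Klf4 library of the same cell type. Among genes with a peak in a library, exonic bases placed Klf4 at percentiles 98.2, 98.4 and 92.4 in EBs A, B and C and 99.1, 98.6 and 96.6 in ESCs A, B and C. Klf2 was at 90.7, 91.8 and 93.7 in EBs and 95.4, 93.9 and 89.2 in ESCs. Klf5 was at 86.6, 86.8 and 63.0 in EBs and 69.2, 61.1 and 44.0 in ESCs.

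The Mettl3-knockout library held 2 peaks on the 3 genes, both near a transcript start. On Klf2 the knockout peak was 101 bp (chr8:72319088-72319188), of which 62 nt were coding bases of exon 1 and the rest intron. On Klf4 it was 107 bp (chr4:55532334-55532440), all within the 5′ UTR, with its centre 79 nt from the transcript start. Klf5 had none. With 1 knockout library there is no replicate error, and what follows describes that library. Klf2, Klf4 and Klf5 had peaks in ESCs A, B and C, and 2 of the 3 had a knockout peak, beside 19.9% of the 5156 genes with that ESC pattern. Among protein-coding genes with a first-exon peak in all 3 ESC libraries, Klf2 and Klf4, the 2 that qualified, had a first-exon knockout peak, beside 37.9% of 939 genes.

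The Klf2 bases shared by the knockout peak and a peak in each of the 6 other libraries are codons 4 to 24 of exon 1 (chr8:72319088-72319149, plus strand), given here because they stayed under a peak without Mettl3.
Klf2 exon 1: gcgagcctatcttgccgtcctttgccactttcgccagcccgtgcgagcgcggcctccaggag
They contain no GGAC, and 25.2% of coding windows of 62 nt hold at least 1. The Klf4 knockout peak contained no GGAC either, and no share of windows of its length was counted. DRACH, a wider motif set described below, had 1 match under the Klf4 knockout peak and 0 under the exonic part of the Klf2 one. Of the 9 first-exon peaks that the 3 genes had in ESCs, 6 overlapped a knockout peak: 3 of 3 in Klf2, 3 of 4 in Klf4 and 0 of 2 in Klf5. Of their 19 other ESC peaks, 0 overlapped a knockout peak (6 in Klf2, 10 in Klf4 and 3 in Klf5). Both counts largely repeat the same places over ESCs A, B and C. The 6 overlaps involve only 2 knockout peaks, so they are not independent. They fell to 4 where the knockout peak had to cover at least 50% of the ESC peak. Over all protein-coding genes, 31.5%, 22.2% and 22.9% of first-exon peaks of ESCs A, B and C overlapped a knockout peak, and 1.65%, 1.77% and 1.04% of their other exonic peaks did. A count of 0 of 19 is therefore near the background. The knockout list was shorter than each ESC list, and the part of its length in these losses was not tested.

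All 3 genes were in all 3 final lists, as were 45.9% of the 7995 symbols in any of them. Klf2 had 1164 exonic bases under peaks in the final EB list, 259 in the MEF list and 1185 in the final ESC list. Klf4 had 2072 in the EB list, 1288 in the MEF list and 2068 in the ESC list. Klf5 had 774 in the EB list, 339 in the MEF list and 482 in the ESC list. MEFs had the lowest value for each gene. The share of all genes lowest in MEFs was not counted, and with 1 list per cell type no test was made. The labels give MEF replicates A and B, against A, B and C for EBs and ESCs. By width percentile of the widest peak, MEFs were lowest for Klf2 only (62.4, against 73.5 in EBs and 88.0 in ESCs). Klf4 stood at 95.3 in MEFs, 92.4 in EBs and 97.5 in ESCs, and Klf5 at 55.1, 73.5 and 47.2.

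In the MEF list Klf2 kept a single entry, over the stop codon and the start of the 3′ UTR (chr8:72320901-72321159), with 0 nt in exons 1 and 2. Klf4 had 6 MEF entries: 824 nt of exon 3, 91 nt of exon 4, 348 nt of the last exon and 25 nt of exon 1. The 5′ UTR entry of 25 bp stood at percentile 0.443 of widths in that list. Klf5 had 2 MEF entries, 228 nt of exon 2 and 111 nt over the stop codon, and none in the 5′ UTR. None of these MEF entries covered the start-side places where the knockout library had a peak. Each final EB entry of the 3 genes overlapped a peak of EBs A, B and C, and each final ESC entry of Klf2 and Klf4 one of ESCs A, B and C. For Klf5, the final ESC entry of the 5′ UTR overlapped peaks of ESCs A and B and that of exon 2 peaks of ESCs B and C.

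The zinc fingers were located in the translated coding sequences, where each protein had 3. They spanned residues 273 to 353 of 354 in Klf2, 402 to 482 of 483 in Klf4 and 364 to 444 of 446 in Klf5, that is, the C-terminal end of each. Of the 201 finger-coding bases of Klf2, 58.7%, 96.0% and 46.3% lay under peaks in EBs A, B and C, 0% in the knockout, and 56.7%, 63.2% and 51.7% in ESCs A, B and C. In Klf4 they were 100%, 100% and 53.2% in EBs, 0% in the knockout, and 65.7%, 64.7% and 65.7% in ESCs. In Klf5 they were 31.3%, 31.3% and 0% in EBs, 0% in the knockout, and 0%, 0% and 0% in ESCs. The first finger of Klf2 was covered in EB B only, the first finger of Klf4 in EBs A and B and the MEF list, and the first and the second finger of Klf5 in no list.

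The coding sequence before the fingers was covered more evenly in Klf2. It had 72.2%, 81.5% and 67.9% under peaks in EBs A, B and C, 7.60% in the knockout, and 78.4%, 66.4% and 35.3% in ESCs A, B and C. In Klf4 it had 80.2%, 85.3% and 28.2% in EBs, 0% in the knockout, and 75.4%, 57.0% and 32.1% in ESCs. In Klf5 it had 56.1%, 55.8% and 21.0% in EBs, 0% in the knockout, and 0%, 12.7% and 19.2% in ESCs.

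The last exons encode the final pair of fingers in each gene, and their coding parts are close copies of each other. They are shown with the stop codon as the last 3 letters, because the peaks on them differed while the sequences were alike (Klf2 chr8:72320744-72320919, plus strand; Klf4 chr4:55528125-55528300, minus strand; Klf5 chr14:99313151-99313329, plus strand).
Klf2 last coding exon: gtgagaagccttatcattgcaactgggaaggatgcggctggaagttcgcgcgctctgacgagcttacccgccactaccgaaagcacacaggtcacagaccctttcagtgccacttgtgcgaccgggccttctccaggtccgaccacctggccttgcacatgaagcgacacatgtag
Klf4 last coding exon: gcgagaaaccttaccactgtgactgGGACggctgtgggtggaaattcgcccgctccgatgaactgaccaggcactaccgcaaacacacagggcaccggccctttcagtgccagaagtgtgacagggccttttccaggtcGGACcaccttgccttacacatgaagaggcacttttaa
Klf5 last coding exon: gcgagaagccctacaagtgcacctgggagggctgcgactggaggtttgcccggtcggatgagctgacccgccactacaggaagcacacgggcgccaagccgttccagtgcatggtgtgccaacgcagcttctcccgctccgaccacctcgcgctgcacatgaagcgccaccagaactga
Klf2 and Klf4 were identical at 79.0% of 176 aligned bases, Klf2 and Klf5 at 74.4% of 176, and Klf4 and Klf5 at 74.0% of 173. Klf4 holds 2 GGAC here, and Klf2 and Klf5 hold 0, so none stands at the same place in any pair. At least 1 GGAC was found in 55.9% of coding windows of 176 nt and in 56.6% of those of 179 nt. Part of this stretch lay under a peak in all 6 EB and ESC libraries in Klf2 and Klf4, and in EBs A and B in Klf5.

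Over the whole transcripts, GGAC was counted on the transcript strand only. Under the peaks of any EB or ESC library lay 10 of 12 GGAC of Klf2, 13 of 15 of Klf4 and 5 of 9 of Klf5. Those peaks took 72.7% of the Klf2 transcript, 75.3% of the Klf4 transcript and 43.2% of the Klf5 transcript. Per kb there were 7.45 GGAC under peaks and 3.97 outside in Klf2, 5.70 and 2.67 in Klf4, and 3.45 and 2.10 in Klf5. Over all protein-coding transcripts the density was 4.07 per kb, and in their coding sequence alone 4.90 per kb. Within 50 nt of peak centres, the ratio of the density near centres to that of the rest was 3.53 in Klf2 and 3.47 in Klf4 but 0.910 in Klf5, where it turned below 1. The 5-letter form GGACT, a subset of GGAC, was found under peaks 1 time in Klf2, 4 times in Klf4 and 0 times in Klf5, and outside peaks 0, 1 and 3 times. With DRACH, a wider set of 18 words of 5 letters that contains most GGAC sites, the densities were 15.6 and 7.94 in Klf2, 22.8 and 21.4 in Klf4, and 23.5 and 15.2 in Klf5. These counts are few, and a match describes the letters and is no methylated site.

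The other 23 Krüppel-like and Sp factors, relatives with the same type of zinc finger, were set beside the 3 genes. Of them 21, 21 and 14 had a peak in EBs A, B and C, 3 in the knockout, and 15, 19 and 20 in ESCs A, B and C. In all 6 EB and ESC libraries 13 of the 23 had a peak, beside 28.4% of all genes: Klf3, Klf6, Klf7, Klf8, Klf9, Klf10, Klf11, Klf13, Klf15, Sp1, Sp2, Sp3 and Sp4. Of the 15 relatives found in each of ESCs A, B and C, 3 had a knockout peak (Klf3, Klf9 and Klf15), a share close to the 19.9% of all such genes. Klf13 and Klf9 were the relatives with the most exonic bases under peaks. Klf13 had 2045, 2189 and 1372 in EBs and 1784, 1352 and 2201 in ESCs, and Klf9 had 2214, 2262 and 1600 in EBs and 1616, 1463 and 1430 in ESCs. Every EB library was above every ESC library for Klf6, Klf7 and Sp1, 3 of the 23 beside 6.01% of all genes, and below for 0 of the 23 beside 1.52%. Sp5, a target of Wnt signalling, went the other way in its means, with 0, 93 and 0 in EBs and 0, 179 and 1037 in ESCs, although its libraries overlapped. The median difference of EBs minus ESCs was 74.3 bases over the 23 relatives, beside 28.7 bases over all 15897 genes.

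**Figure D4:**
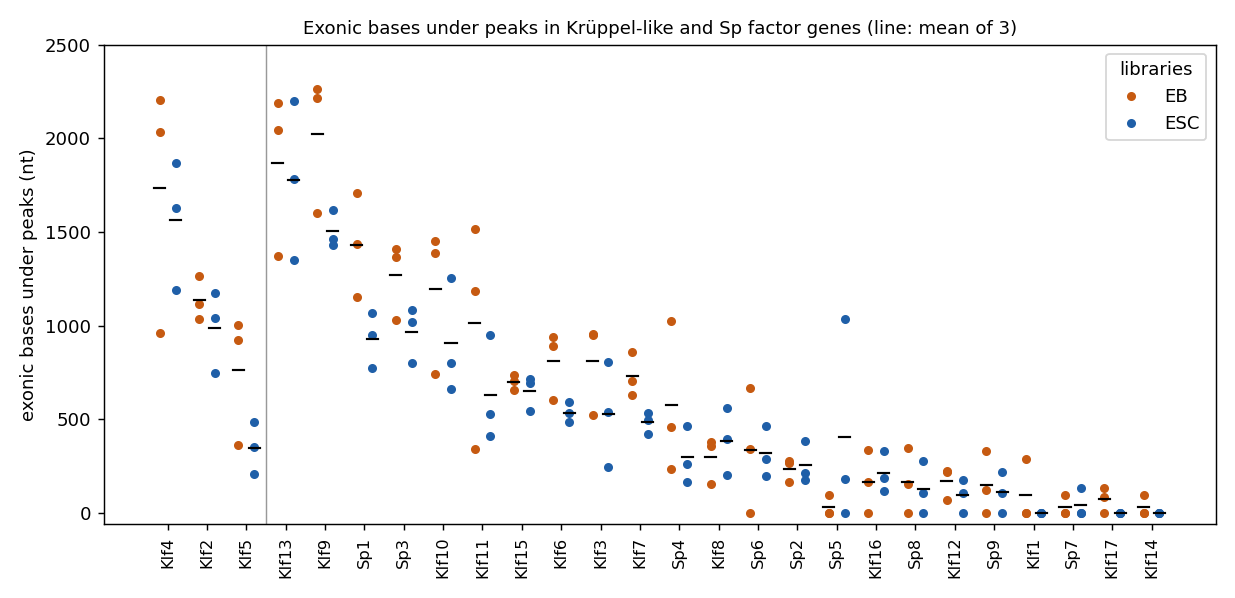
Exonic bases under peaks (nt) of Krüppel-like and Sp factor genes in 3 EB (orange) and 3 ESC (blue) libraries, with lines for the means. Klf4, Klf2 and Klf5 stand left of the vertical line and their relatives are ordered by mean. Klf13 and Klf9 are the highest relatives. Klf4 lies below both in EB A (2031), EB C (958) and ESC C (1189). It lies between them in EB B (2207) and above both in ESC A (1866) and ESC B (1628).

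Partners of the 3 genes in the naive network were counted in the same way. Of 15 such genes, 12, 13 and 11 had a peak in EBs A, B and C, 5 in the knockout, and 11, 13 and 13 in ESCs A, B and C. In all 6 EB and ESC libraries 10 of the 15 had a peak, beside 28.4% of all genes. The 5 with a knockout peak were Nanog, Esrrb, Tfcp2l1, Tbx3 and Zfp42. Of the 10 found in each of ESCs A, B and C, 3 had a knockout peak, beside 19.9% of all such genes. Upstream of Klf4, the LIF receptor genes Lifr (1339, 1662 and 948 bases in EBs, 890, 969 and 730 in ESCs) and Il6st (1577, 1923 and 1020 in EBs, 1087, 1366 and 1445 in ESCs) had peaks in all 6 libraries, with EB and ESC libraries overlapping. Stat3, the factor they activate, had a peak in ESC B only. Every EB library was above every ESC library for Esrrb, Sall4 and Sox2, 3 of the 15 beside 6.01% of all genes, and below for 0 of the 15 beside 1.52%. Nanog, the homeodomain factor of the network, had 1108, 997 and 418 bases in EBs, 294 in the knockout, and 632, 681 and 499 in ESCs. The median difference of EBs minus ESCs over the 15 was 207 bases.

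The genes most like each of the 3 were sought among 13243 protein-coding genes by the mean absolute difference in the percentile of exonic bases over the 7 libraries. The knockout library was among the 7, so a shared presence or absence of a knockout peak is partly set by the measure. Nearest to Klf2 were Spry2 (2.18 percentile points), Zic2 (2.22) and Dmwd (2.22), none with a knockout peak although Klf2 had a low-ranking one. Nearest to Klf4 were Hjurp (1.23), Klhl11 (1.70) and, next in order, Hic2, with a knockout peak in each. Nearest to Klf5 were Sec24b (4.70), Pigo (5.49) and Mettl6 (5.60), none with a knockout peak.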

How the data were processed

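The data are peak positions from antibody-enriched m6A-seq libraries of 3 EB cultures, 1 Mettl3-knockout ESC culture and 3 ESC cultures, and the authors' 3 final lists. The positions (start and end in bp, with no score) were deposited by the authors. The build mm10 and the tools TopHat2 2.0.10, MACS 1.4.1 and CASAVA 1.8.2 are named, per the submitters' processing notes, without their roles. Peak names in the 6 EB and ESC lists point to MACS2 instead, per the files. Peak thresholds and how replicates were joined are not given in the sources used here. Input libraries and single MEF libraries were not analysed here. Peaks were compared, without regard to strand, with exons of the GENCODE M21 basic gene set on GRCm38, whose sequence matched the annotated transcripts of the 3 genes, and no other annotated gene overlapped their loci. Places along the mRNA used the principal transcript. Coordinates count from 1; MEF starts were assumed to be 0-based, which may shift them by 1 bp. Groups came from the sample titles. The 3 genes and the gene lists were chosen with earlier results of these data known. Named genes were the 3 genes, the members of the family and network lists, and for each of the 3 the 3 protein-coding genes nearest in percentile of exonic bases over the libraries. Sequencing depth is unknown, so no counting interval is given, and p-values measure the spread between 3 libraries a group. Tests were 2-sided exact permutation tests over libraries, with Benjamini-Hochberg adjustment over 21 tests; the counts and tests were checked on simulated data. Alternatives left out single libraries, shortened lists to the 10515 widest peaks, changed the overlap or exons, used the replicate block, or changed the motif. Python 3.11.15, NumPy 2.4.6, SciPy 1.17.1, pysam 0.24.0, Biopython 1.88 and matplotlib 3.10.9 were used.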

Additional observations from a re-analysis of the deposited data

How the results depend on the processing

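Leaving out 1 library at a time, the EB minus ESC difference ranged from 33.5 to 246 exonic bases for Klf2 (33.5 without ESC C, 90 without EB B), from 0.833 to 1.83 peaks for Klf5 (0.833 without EB B), from 10.96 to 24.7 percentile points of peak width for Klf5 (10.96 without EB A), from 0.0 to 0.5 peaks for Klf2 (0.0 without EB B), from −66.5 to 558.0 exonic bases for Klf4 (−66.5 without EB B, −15.0 without ESC C), from −0.167 to 1.33 peaks for Klf4 (−0.167 without ESC A) and from −13.8 to 2.86 percentile points of peak width for Klf4 (2.86 without EB C); the cause was not tested. For the Klf5 coding bases, an alternative set added after seeing the data, it ranged from 345 to 577, with exact permutation p = 0.2 in each. With the lists shortened to 10515 peaks, the Klf5 differences were 335 exonic bases, 0.667 peaks, 25.4 percentile points of width and 375 coding bases, and the Klf2 width difference was −6.03 percentile points. Within 50 nt of peak centres the GGAC density ratio was 3.53 for Klf2, against 1.88 over whole peaks, 3.47 for Klf4, against 2.14, and 0.910 for Klf5, against 1.64; with DRACH the Klf4 ratio was 1.07; the cause was not tested. On first exons only, 37.9% of genes had a knockout peak, against 19.9% over all exons; this was added after seeing the data. Whether replicate letters pair the libraries was not settled. Same-letter deviations correlated at −0.124 (A), 0.333 (B) and 0.0972 (C), and other-letter deviations at values from −0.345 to 0.252. With the letter as a replicate block, the exonic-base differences of 153 for Klf2, 171 for Klf4 and 415 for Klf5 had exact sign-flip p-values of 0.5, 0.75 and 0.25, where 0.25 is the smallest possible. No other alternative turned a direction, and no difference passed a threshold, which 3 against 3 cannot do. Without read depth, a missing peak bounds nothing about methylation.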
